A study of Mus musculus with 24 samples.

Results

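The genes described here are 50 genes that copy DNA or supply its building blocks, the deoxynucleotides (dNTPs). They were listed by name and role, and all 50 are rows of a deposited table of 23235 genes. T11 cells, a mouse claudin-low mammary tumour line, carried a luciferase gene per the labels and received PBS, Omomyc, the peptide FPP-1746 or the fusion FPP-1746-Omomyc. Each treatment lasted 3 h or 6 h, the peptides being given at 5 µM. Each of the 8 groups has 3 biological replicates per the labels, which makes 24 samples. The table holds 1 averaged column per group, in FPKM (fragment counts scaled to transcript length and library size), so the spread between replicates cannot be seen and nothing was tested. Omomyc is a small dominant-negative protein derived from MYC, which takes up MAX, the partner of MYC, and occupies E-boxes. FPP-1746 belongs to the cell-penetrating peptides and is joined to Omomyc in the fusion. The 3 samples titled as the fusion at 6 h carry a treatment tag of 3 h, and the title was followed. The line stands as 1 tumour cell line in culture, with no label for cell cycle position.

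DNA replication starts at origins that the origin recognition complex marks. CDC6 and CDT1 load the MCM helicase there, and geminin blocks CDT1. In S phase the kinase CDC7 with DBF4, the GINS complex and MCM10 turn the loaded helicase on. DNA polymerase alpha with its primase begins each strand, polymerases delta and epsilon extend it on the PCNA clamp, and FEN1 and LIG1 join the lagging-strand pieces. Ribonucleotide reductase, thymidine kinase and thymidylate synthase feed the forks. Many of these genes are transcribed at the G1/S boundary under E2F factors. In a bulk culture, fewer cells in S phase and less RNA per cell cannot be told apart.

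The markers were those of a mesenchymal line. Of 8 mesenchymal markers Vim was highest, at 3302 to 5128 FPKM, and the summed level of 8 epithelial markers stayed between 0.0308 and 0.185 FPKM. The sum of 4 macrophage markers in the table was 11.2 to 25.8 FPKM without the fusion and 81.0 and 120.6 FPKM with it. Cd14 made up nearly all of it, while Csf1r was at most 0.0523 and Lyz2 at most 0.0495 FPKM. Column sums lay between 445657 and 594951 FPKM. The 50 genes had column means from 4.41 FPKM (Cdc7) to 151 FPKM (Mcm3), with a median of 44.9 against 14.8 over the 10262 genes whose 8 columns averaged 1 FPKM or more. All 50 passed that minimum, and those 10262 genes are called the kept genes below.

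The sequence before the start sites was described as well. It is not independent of the choice by role, since many genes of this role are known to be under E2F factors. RefSeq windows from 250 bases before to 50 bases after the start (build GRCm38.p6) were at hand for 42 of the 50. An E2F word (TTTCGCGC, TTTGGCGC, TTTCCCGC or TTTGCCGC, on either strand) lay in 15 of 42, or 35.7%. It lay in 5.29% of the 7334 kept genes with a window and in 2.60% of all 27025 genes with one. The E-box CACGTG, the word that MYC with MAX binds, lay in 8 of 42, or 19.0%, against 12.6% of kept genes. A CCAAT box (CCAAT, either strand) lay in 24 of 42, or 57.1%, against 44.1%. The CHR word TTTGAA, a feature of mitotic promoters, lay in 14.3% against 13.6% of kept genes. In 22 mitosis genes with a window the order was turned around: 4.55% held the E2F word and 68.2% the CHR word. A match describes letters only, not a bound site.

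**Figure D1:**
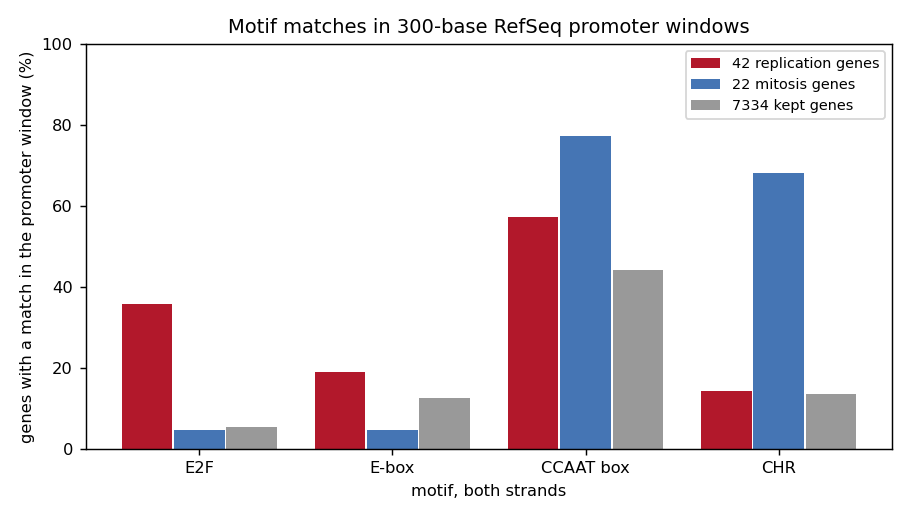
Share of genes (%) whose 300-base promoter window holds each of 4 motifs on either strand, for 42 replication genes (red), 22 mitosis genes (blue) and 7334 kept genes (grey). The E2F word stands at 35.7% in replication genes and 5.29% in kept genes, while the CHR word stands at 68.2% in mitosis genes and 14.3% in replication genes.

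The 190 bases before the start are printed 5′ to 3′ for 7 genes, with E2F, E-box and CCAAT matches in capitals. These 7 were chosen after values were seen, and each was at least 1.5-fold lower with the fusion at 3 h or 6 h. They therefore do not show how the words relate to the fall. The E2F word also lay in 10 of 27 genes that were not lower by that rule at 6 h. Mcm5, Mcm6 and Uhrf1 show the E2F word, Tyms shows the E-box, Rrm2 and Mcm10 show a CCAAT box without either, and Tk1, the gene that fell most, has none of the 3 in this window. In Mcm5 and Mcm6 an E2F word on one strand overlaps one on the other, so 2 matches read as 1 run of capitals (first bases at -153 and -149 in Mcm5, -110 and -106 in Mcm6). Uhrf1 has 2 start sites in RefSeq and the one with the E2F match, at -185, is shown. The stretches, in GRCm38.p6, are Mcm5 at chr8:75109319-75109508, plus strand, Mcm6 at chr1:128359706-128359895, minus strand, Uhrf1 at chr17:56304123-56304312, plus strand, Tyms at chr5:30073626-30073815, minus strand, Rrm2 at chr12:24708064-24708253, plus strand, Mcm10 at chr2:5012792-5012981, minus strand and Tk1 at chr11:117826015-117826204, minus strand.
Mcm5: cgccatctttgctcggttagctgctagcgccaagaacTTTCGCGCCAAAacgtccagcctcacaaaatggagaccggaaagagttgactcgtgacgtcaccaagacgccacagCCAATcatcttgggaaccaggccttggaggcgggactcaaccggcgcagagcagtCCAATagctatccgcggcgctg
Mcm6: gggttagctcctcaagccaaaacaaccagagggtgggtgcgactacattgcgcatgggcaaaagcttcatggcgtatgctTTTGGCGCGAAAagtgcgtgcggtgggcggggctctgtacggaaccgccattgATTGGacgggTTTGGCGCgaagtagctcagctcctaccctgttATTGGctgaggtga
Uhrf1: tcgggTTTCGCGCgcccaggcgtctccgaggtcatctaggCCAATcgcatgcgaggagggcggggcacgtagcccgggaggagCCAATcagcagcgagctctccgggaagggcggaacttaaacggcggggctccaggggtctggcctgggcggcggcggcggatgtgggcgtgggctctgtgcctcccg
Tyms: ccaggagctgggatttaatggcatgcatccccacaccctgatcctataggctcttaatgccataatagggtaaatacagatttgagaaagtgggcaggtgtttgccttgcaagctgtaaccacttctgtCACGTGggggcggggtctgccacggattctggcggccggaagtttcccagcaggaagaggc
Rrm2: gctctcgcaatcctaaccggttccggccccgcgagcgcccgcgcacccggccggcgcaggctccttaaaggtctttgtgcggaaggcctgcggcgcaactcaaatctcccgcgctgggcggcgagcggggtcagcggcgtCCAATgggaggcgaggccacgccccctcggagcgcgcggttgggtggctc
Mcm10: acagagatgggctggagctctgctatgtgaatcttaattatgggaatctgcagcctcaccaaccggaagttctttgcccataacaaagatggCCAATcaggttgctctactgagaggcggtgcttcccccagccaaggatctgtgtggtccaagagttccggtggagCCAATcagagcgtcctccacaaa
Tk1: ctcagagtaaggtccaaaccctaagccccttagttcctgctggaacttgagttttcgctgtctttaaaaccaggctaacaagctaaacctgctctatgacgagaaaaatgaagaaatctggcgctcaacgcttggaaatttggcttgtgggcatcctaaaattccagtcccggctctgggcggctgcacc

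With the fusion, most of the 50 genes had lower values than with PBS at both times. At 3 h 40 of 50 (80%) lay below PBS, beside 49.5% of kept genes. The median log2 ratio of FPKM + 1 was -0.24, against 0.0034 over the kept genes. At 6 h 42 (84%) lay below PBS, beside 51.7%, and the median was -0.42, against -0.026. A gene is called higher or lower here when FPKM + 1 differs at least 2-fold. At 3 h 2 genes fell, Orc5 and Mcm10, which is 4.0% of the 50 beside 4.42% of kept genes, and none rose, beside 6.13%. That share is near the background. At 6 h 5 fell, Tk1, Rrm2, Gins2, Rfc2 and Prim1, or 10.0% beside 3.34%, and none rose, beside 7.13%.

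The milder 1.5-fold rule shows the width of the difference at 6 h. By it 18 of the 50 were lower at 6 h, or 36% beside 15.2% of kept genes, and none was higher, beside 17.4%. At 3 h 5 were lower, or 10.0% beside 14.5%, and 2 were higher, or 4.0% beside 15.7%. The 5 at 3 h were Orc2, Orc5, Mcm10, Pold3 and Rfc5, and of these Rfc5 alone was also among the 18 at 6 h. That overlap was not computed over the kept genes, and these counts change with the column scaling given below. The fusion column lay below all 3 other columns of its time for 38 genes at 3 h (76.0%, beside 45.9% of kept genes) and for 42 at 6 h (84.0%, beside 47.3%). It lay above all 3 for 5 genes at 3 h, beside 46%, and for 8 at 6 h, beside 44%. For 32 genes it was below at both times, a count for which the share of kept genes was not computed. Summed over the 50 genes, the level was 2769 FPKM in PBS and 2517 with the fusion at 3 h, then 2928 and 2079 FPKM at 6 h.

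The order of the times depends on the scaling of the columns. The fusion columns had the highest sum of the 8 at 3 h, 594951 FPKM, and the lowest at 6 h, 445657 FPKM. As a share of their column's sum, the 50 genes went from 0.569% in PBS to 0.423% with the fusion at 3 h and from 0.625% to 0.467% at 6 h, so that the step was of a like size at both times. With all columns scaled to equal sums, the median log2 ratio of the 50 was -0.52 at 3 h and -0.35 at 6 h, beside -0.25 and 0.033 over the kept genes. The median of the 50 was below that of the kept genes at both times on either scale. On that scale 4 of the 50 were 2-fold lower at 3 h (beside 8.84% of kept genes) and 4 at 6 h (beside 2.58%), while 18 and 17 were 1.5-fold lower (beside 26.5% and 12.4%), and none was higher by either rule (beside 3.97% and 8.47% at 2-fold, 8.15% and 20% at 1.5-fold). Orc2 (-1.17) and Rfc5 (-1.06) passed 2-fold at 3 h there. Mcm3, Gins2, Pola1, Pole, Lig1 and Dut, above PBS at 3 h as deposited, were then below it, and Orc6 and Gins4 moved from below to above PBS at 6 h. Positions against the other 3 columns changed for 8 genes at 3 h and 7 at 6 h. At 3 h Mcm3, Gins2, Cdc7, Pola1, Pold1, Pole and Lig1 went from within to below, and Dut from above to below. At 6 h Orc6 went from below to above, and Orc5, Gins4, Dbf4, Rpa2, Chaf1a and Slbp from below to within. The values that follow are as deposited, so these positions and differences between 3 h and 6 h carry this limit.

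With either part alone, the 50 genes stayed near PBS. With Omomyc or FPP-1746, none of the 50 passed 2-fold at either time, beside 0.331% of kept genes lower and 0.283% higher for Omomyc at 3 h, 0.37% and 0.312% at 6 h, and 0.292% and 0.322% for FPP-1746 at 3 h, 0.331% and 0.224% at 6 h. None passed 1.5-fold either, beside 0.507% lower and 0.468% higher for Omomyc at 3 h, 0.458% and 0.477% at 6 h, and 0.39% and 0.546% for FPP-1746 at 3 h, 0.565% and 0.341% at 6 h. The widest log2 ratio was 0.28, for Pole2 with Omomyc at 3 h. With Omomyc 22 of 50 lay below PBS at 3 h (44%, beside 44.7% of kept genes) and 33 at 6 h (66%, beside 48.9%). With FPP-1746 29 lay below PBS at 3 h (58%, beside 46.9%) and 32 at 6 h (64%, beside 47.3%). The median log2 ratios at 6 h were small, -0.038 for Omomyc and -0.035 for FPP-1746, against 0.0014 and 0.0046 over the kept genes. Among PBS, Omomyc and FPP-1746, the highest column was a median 1.05 times the lowest at 3 h and 1.06 times at 6 h, and at most 1.23 times (Pole2). These 3 columns are different treatments and not replicates, and their closeness is the only spread the table offers.

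**Figure D2:**
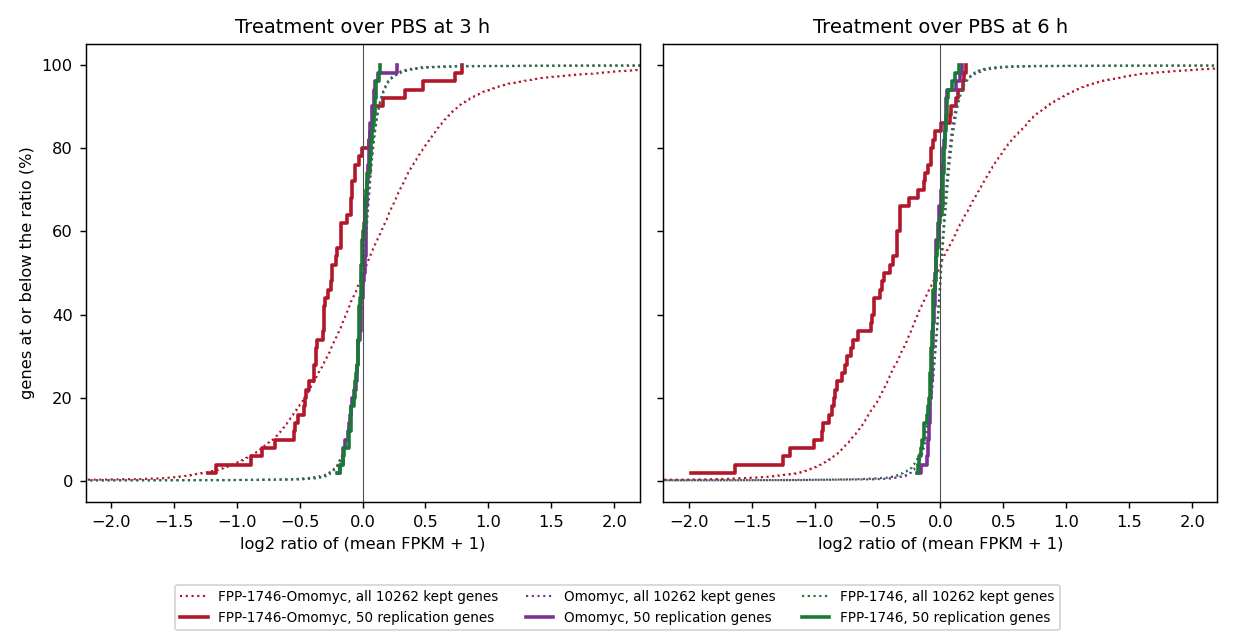
Cumulative share of genes (%) by log2 ratio over PBS at 3 h (left) and 6 h (right), for the 50 genes (solid) and the 10262 kept genes (dotted), with the fusion in red, Omomyc in purple and FPP-1746 in green. The solid red curve has medians of -0.24 and -0.42 and lies left of the dotted one at its middle, the lower tails crossing at 3 h, while the purple and green solid curves rise steeply at 0.

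Set against the parts in place of PBS, the fusion gave like values, as these comparisons share the fusion column. Against FPP-1746, Orc5 (-1.12) and Mcm10 (-1.05) fell at 3 h, beside 4.01% of kept genes, and Tk1 (-1.80), Rrm2 (-1.55), Gins2 (-1.17) and Rfc2 (-1.06) at 6 h, beside 3.21%. Against Omomyc, Orc5 (-1.08) fell at 3 h, beside 3.76%, and Tk1 (-2.002), Rrm2 (-1.53), Gins2 (-1.19) and Rfc2 (-1.15) at 6 h, beside 3.07%. None rose in these 4 comparisons. The share of kept genes that rose was 5.86% at 3 h and 6.94% at 6 h against FPP-1746, and 5.56% and 6.59% against Omomyc. By the 1.5-fold rule, 5 were lower (beside 13.9%) and 2 higher (beside 14.7%) against FPP-1746 at 3 h, and likewise 5 (beside 13.4%) and 2 (beside 14.6%) against Omomyc. At 6 h 19 were lower against FPP-1746 (beside 14.8%) and 18 against Omomyc (beside 14.7%), and none was higher, beside 17% and 17.3%. The PBS columns themselves differed little: none of the 50 passed 2-fold between 6 h and 3 h, beside 0.487% of kept genes lower and 0.38% higher, and none passed 1.5-fold, beside 1.86% and 2.11%. A higher value at 6 h was found for 39 of 50, or 78%, beside 47.9% of kept genes, furthest for Pold1 (log2 ratio 0.55) and Tk1 (0.54).

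**Figure D3:**
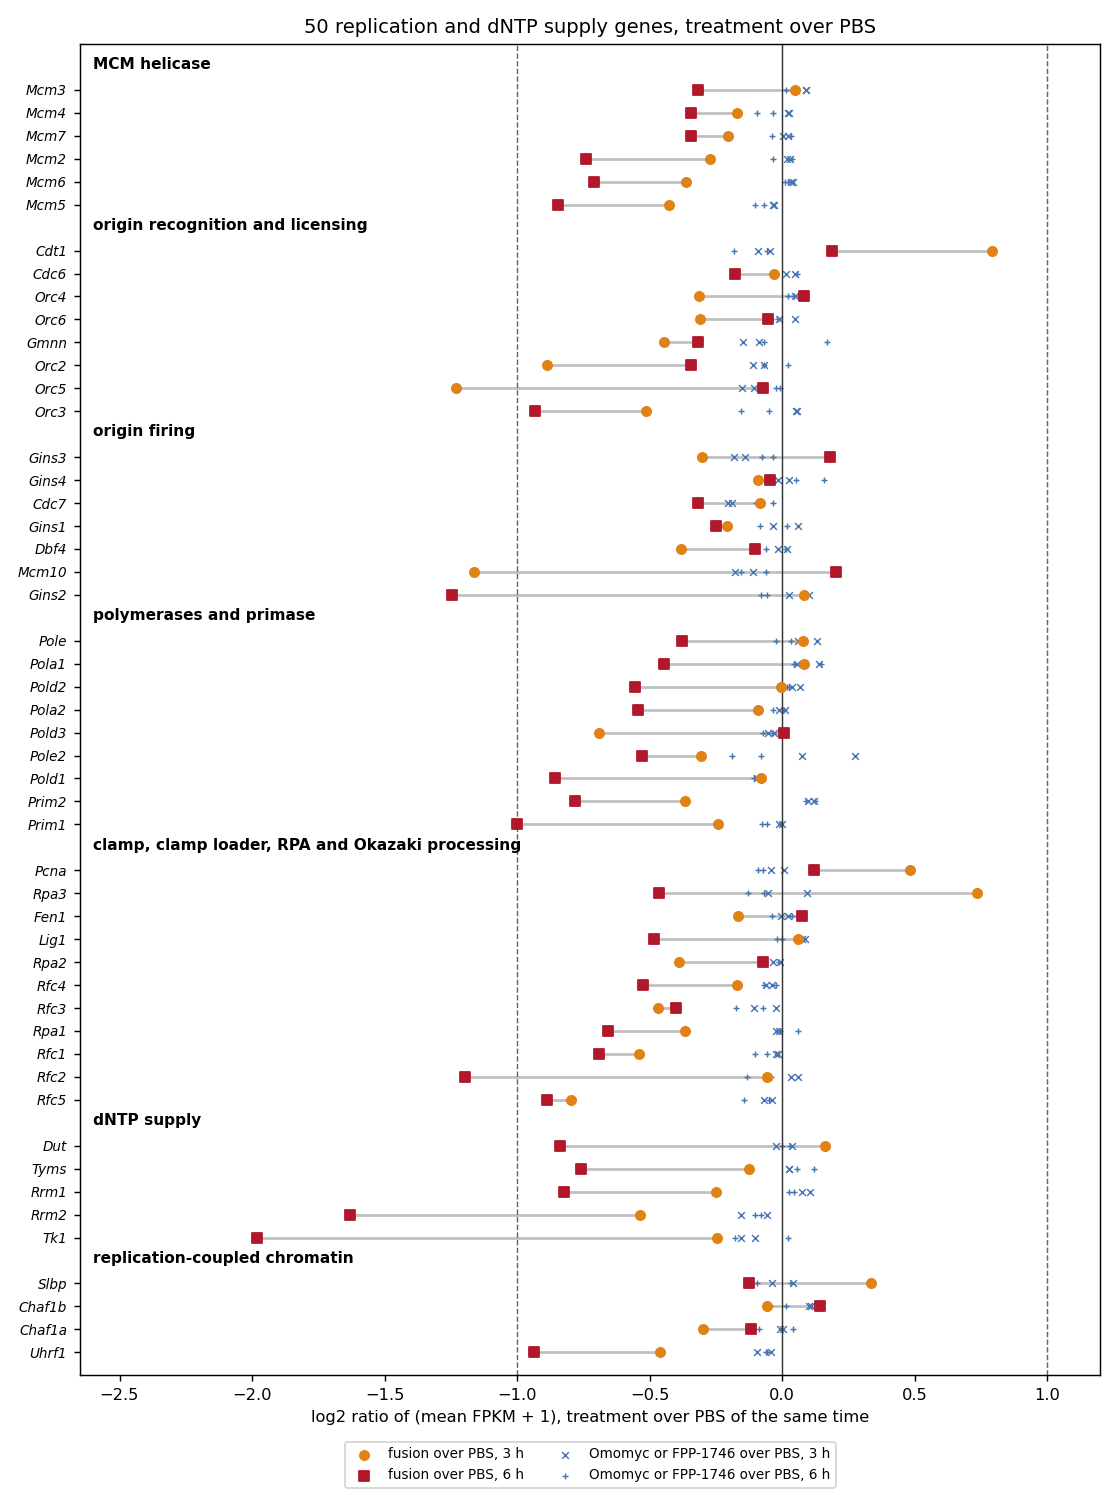
Log2 ratio of FPKM + 1 over PBS of the same time for each of the 50 genes, by role, with the fusion at 3 h (orange circles) and 6 h (red squares) joined by a grey line and each part alone as blue marks. Dashed lines mark 2-fold; Tk1 reaches -1.98 at 6 h and Cdt1 stands highest at 0.79 at 3 h, while the blue marks stay within 0.28 of 0.

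The dNTP supply genes had the lowest median of the 7 role groups at 6 h. All 5 lay below PBS at 6 h, with a median log2 ratio of -0.84, and 2 fell past 2-fold. Tk1 encodes thymidine kinase 1, which salvages thymidine. In PBS, Omomyc, FPP-1746 and the fusion, in that order, Tk1 stood at 52.4, 48.8, 47.0 and 44.1 FPKM at 3 h and at 76.8, 78.0, 67.7 and 18.7 FPKM at 6 h. At 6 h the fusion column was thus far below the other 3, at 24.4% of PBS, a log2 ratio of -1.98. The PBS column of Tk1 was itself higher at 6 h than at 3 h, and against the mean of both PBS columns the log2 ratio was -1.74. The table gives Tk1 the locus of chromosome 11 from 117676833 to 117701222 (mm9), shared with Afmid, whose level at 6 h was 4.20 FPKM under PBS and 1.07 FPKM under the fusion. How reads were divided between genes of 1 locus was not tested.

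Rrm2 encodes the small, cell cycle regulated subunit of ribonucleotide reductase, and Rrm1 the large one. Rrm2, on chromosome 12 from 25393119 to 25399011, was at 161, 144, 155 and 111 FPKM at 3 h and at 176, 164, 166 and 56.0 FPKM at 6 h in the same order of treatments. The fusion column was the lowest at both times, at 68.8% and 31.9% of PBS. Rrm1 was at 104 FPKM with the fusion at 3 h and at 72.4 FPKM at 6 h, against 124 and 129 FPKM in PBS. The level of Rrm2 divided by that of Rrm1 was between 1.07 and 1.36 in the other 7 columns and 0.775 in the fusion at 6 h, a ratio chosen after its values were seen. Tyms, which encodes thymidylate synthase and whose E-box is printed above, was at 91.4% of PBS at 3 h and 57.2% at 6 h. Dut encodes the dUTPase that keeps uracil out of DNA. It stood at 62.2, 61.2, 63.8 and 69.7 FPKM at 3 h and at 58.9, 59.0, 60.2 and 32.5 FPKM at 6 h. The fusion column of Dut was thus the highest of 4 at 3 h and the lowest of 4 at 6 h.

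None of the MCM helicase genes passed 2-fold. At 6 h all 6 were below PBS and below both parts, with a median log2 ratio of -0.53, after -0.24 at 3 h with 5 of 6 below PBS. With equal column sums these medians were -0.46 and -0.52, so that the order of the times turned. Mcm5 was the lowest, at 129, 126, 127 and 95.8 FPKM at 3 h and at 146, 136, 139 and 80.7 FPKM at 6 h. Its fusion column was under the other 3 at both times, at 74.1% and 55.3% of PBS. Mcm2 and Mcm6 were close to it at 6 h, with 59.5% and 60.7% of PBS. Mcm4 and Mcm7 were milder, at 78.6% and 78.5%. Mcm3 had the highest mean level of the 50 genes over the 8 columns and the smallest ratios of this group, at 147, 156, 156 and 152 FPKM at 3 h and at 156, 157, 160.3 and 125 FPKM at 6 h. At 3 h Mcm3 in the fusion lay within the other columns. On the FPKM scale, which allows for length, the highest helicase gene, Mcm3 in each column, was 1.81 to 2.15 times the lowest, although the 6 proteins sit once each in the ring. Mcm7 shares its locus with microRNA records.

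Genes for origin recognition and licensing were lower at 3 h (median log2 ratio -0.38) than at 6 h (-0.12), and with equal column sums -0.66 and -0.056. Orc5, a subunit of the origin recognition complex, fell at 3 h and was near PBS at 6 h. It was at 32.1, 28.8, 29.7 and 13.1 FPKM at 3 h and at 38.6, 38.0, 38.3 and 36.7 FPKM at 6 h. That is 40.9% of PBS and then 95.1%. Orc5 lies on chromosome 5 from 21992307 to 22056149, and the table gives the same locus to Gm15421, whose level at 3 h was 8.30 FPKM under PBS and 18.5 FPKM under the fusion. Orc2, with a locus of its own, went the same way, at 53.4% of PBS at 3 h and 78.5% at 6 h. Orc6 and Orc4 stood at 80.4% and 79.2% at 3 h and at 96.2% and 106% at 6 h.

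Orc3 was the exception among the ORC genes of this role group. It was at 10.9, 11.4, 11.4 and 7.34 FPKM at 3 h and at 11.4, 10.98, 10.1 and 5.49 FPKM at 6 h, so that the fusion column was lowest at both times and lower at 6 h. Its log2 ratio of -0.93 at 6 h missed the 2-fold rule, which is set on FPKM + 1. The level itself was at 48.2% of PBS. Orc3 shares its locus with Akirin2, whose level at 6 h was 49.4 FPKM under PBS and 80.4 FPKM under the fusion. Orc1, an ORC gene from the list of other replication genes described below, was also lower at 6 h. Its log2 ratio of the fusion over PBS was -0.04 at 3 h and -0.37 at 6 h. Cdc6, which loads the helicase together with CDT1, was at 97.8% and 87.4% of PBS.

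Cdt1 and its inhibitor parted at 3 h. Cdt1 stood at 83.3, 80.6, 78.0 and 145 FPKM at 3 h and at 90.7, 79.8, 87.1 and 103 FPKM at 6 h, the highest of 4 columns each time. Its log2 ratio of 0.79 at 3 h was the highest of the 50 genes and under 2-fold. Gmnn, which encodes geminin, was at 72.7% of PBS at 3 h and 79.8% at 6 h, below all 3 other columns each time. The level of Cdt1 divided by that of Gmnn at 3 h was 2.18 under PBS, 2.25 and 2.27 under the single peptides Omomyc and FPP-1746, and 5.22 under the fusion. At 6 h these were 1.95, 1.52, 1.96 and 2.78. This ratio was also chosen after its values were seen.

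**Figure D4:**
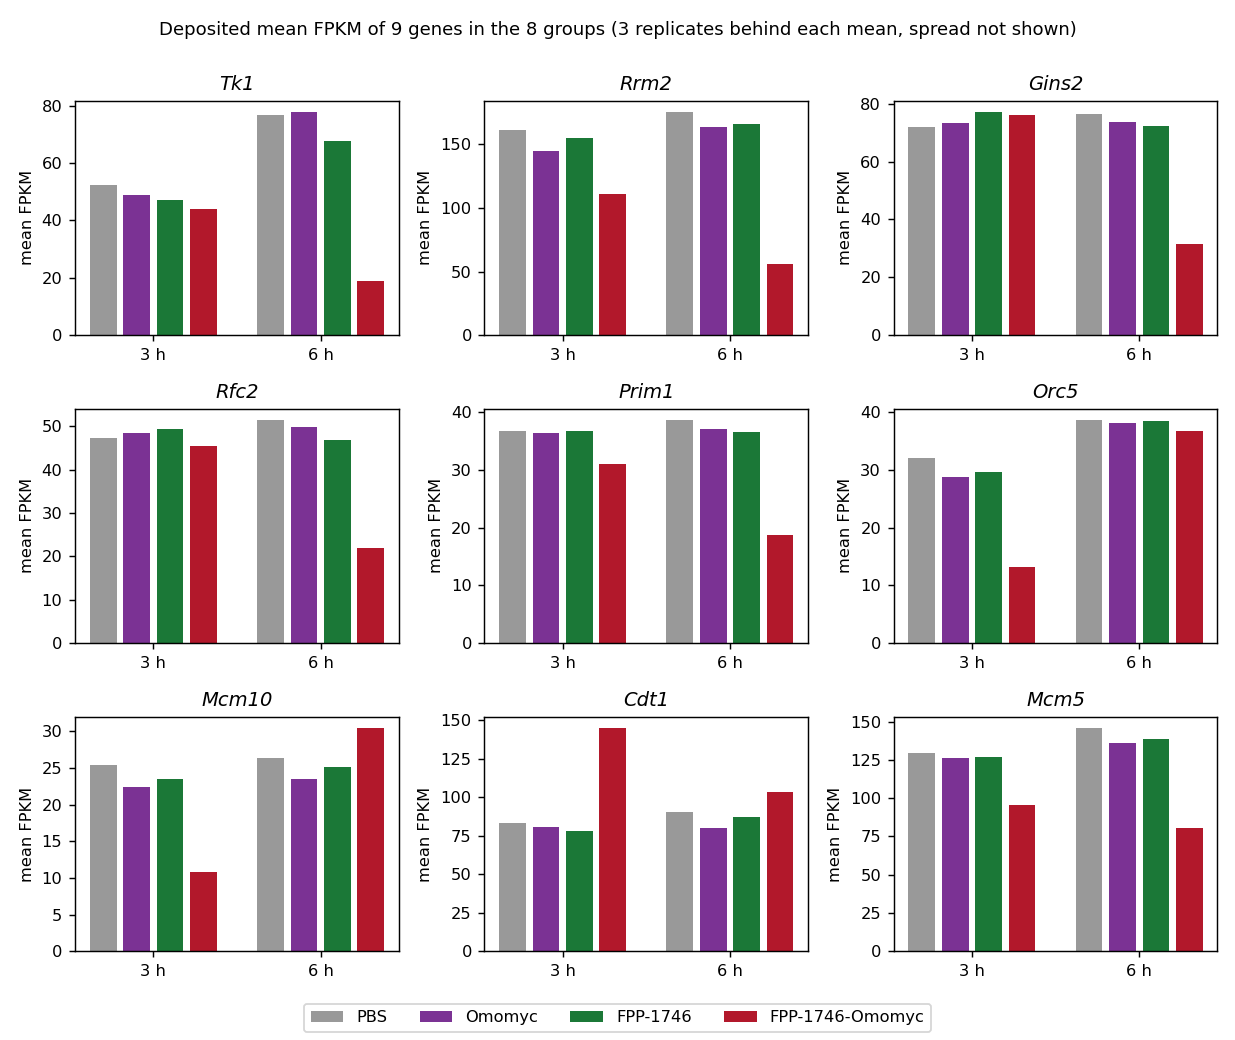
Deposited mean FPKM of 9 genes in the 8 groups, 1 bar per averaged column, so no error bar can be drawn. Tk1, Rrm2, Gins2, Rfc2 and Prim1 are low with the fusion (red) at 6 h, Orc5 and Mcm10 are low at 3 h (13.1 and 10.8 FPKM) and not at 6 h, Cdt1 is high at 3 h (145 FPKM), and Mcm5 is low at both times.

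Among origin firing genes, Mcm10 and Gins2 differed most between the times. Mcm10, which helps the loaded helicase start unwinding, fell at 3 h alone. It was at 25.5, 22.4, 23.5 and 10.8 FPKM at 3 h and at 26.4, 23.6, 25.2 and 30.5 FPKM at 6 h, the lowest and then the highest of 4 columns. The log2 ratio was -1.16 at 3 h and 0.20 at 6 h, and with a pseudocount of 5 FPKM the first was -0.95 and no longer past 2-fold. Gins2, a subunit of the GINS complex, lay within the other columns at 3 h and fell at 6 h. Its values were 72.0, 73.3, 77.2 and 76.2 FPKM at 3 h and 76.5, 73.5, 72.3 and 31.7 FPKM at 6 h, or 41.4% of PBS at the later time. The table gives Gins2 a locus on chromosome 8 from 123012766 to 123112975 that it shares with Gse1, whose level at 6 h was 6.79 FPKM under PBS and 5.62 FPKM under the fusion.

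The other GINS genes did not follow Gins2, although their proteins form 1 complex. Gins1 stood at 85.9% and 83.3% of PBS and Gins4 at 93.7% and 96.8%. Gins3 was at 9.04, 8.10, 7.86 and 7.13 FPKM at 3 h and at 10.2, 9.67, 9.96 and 11.7 FPKM at 6 h, the lowest and then the highest column. The kinase gene Cdc7, the least expressed of the 50, was at 4.11 FPKM with the fusion at 3 h and 4.03 at 6 h, against 4.41 and 5.28 in PBS. Dbf4, which encodes its activator, was at 76.2% and 93.1% of PBS.

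Polymerase and primase genes were near PBS at 3 h (median log2 ratio -0.093) and lower at 6 h (-0.54, with 8 of 9 below all other columns), while with equal column sums the medians were -0.37 and -0.47. Prim1, the catalytic primase subunit, was at 36.7, 36.4, 36.7 and 30.9 FPKM at 3 h and at 38.6, 37.1, 36.6 and 18.8 FPKM at 6 h. Its log2 ratio of -1.001 at 6 h just met the 2-fold rule, and it did not under 5 of 7 other settings, where it was between -0.98 and -0.87. Prim2, the partner subunit, stood at 57.2% of PBS at 6 h, and Pola1 and Pola2, the subunits of polymerase alpha, at 72.2% and 67.8%. In polymerase delta the catalytic gene Pold1 was at 53.6%, Pold2 at 67.9% and Pold3 at 100.4% of PBS at 6 h. Pold3 had been at 57.7% at 3 h, when Pold1 and Pold2 were at 94.2% and 99.5%. Subunits of this 1 enzyme thus stood apart in opposite order at the 2 times. Pole, the catalytic subunit of polymerase epsilon, was at 10.0, 10.5, 11.05 and 10.6 FPKM at 3 h and at 11.9, 12.2, 11.6 and 8.91 FPKM at 6 h. It lay within the other columns at 3 h and below them at 6 h. Pole2 was at 79.3% and 66.8% of PBS.

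All 5 clamp loader genes were below PBS at 6 h, while the clamp gene was above it. Rfc2 was at 47.3, 48.4, 49.3 and 45.5 FPKM at 3 h and at 51.5, 49.9, 46.9 and 21.9 FPKM at 6 h, a fall to 42.5% of PBS. Rfc5 was at 20.6, 19.6, 20.0 and 11.4 FPKM at 3 h and at 21.8, 21.1, 19.7 and 11.3 FPKM at 6 h. It was thus low to a like degree at both times, at 55.4% and 51.9% of PBS. Rfc1, the large subunit, was at 67.5% and 60.5%, Rfc3 at 71.7% and 75.3% and Rfc4 at 88.6% and 68.9%. Rfc4 shares its locus with Eif4a2, which was at 46.8 FPKM under PBS and 52.2 under the fusion at 3 h, and at 52.1 and 52.8 FPKM at 6 h. Pcna, the sliding clamp, was at 128, 128, 124 and 179 FPKM at 3 h and at 129, 121, 123 and 140.4 FPKM at 6 h, the highest of 4 columns each time. Only Cdt1 shared that position among the 50.

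The single-strand binding protein RPA has 3 subunits, and their genes differed. Rpa1 was at 77.3% and then 63.0% of PBS, and Rpa2 at 76.0% and then 94.9%. Rpa3, the smallest, was at 45.3, 48.4, 43.6 and 76.1 FPKM at 3 h and at 40.0, 38.1, 36.5 and 28.7 FPKM at 6 h. Its fusion column was the highest at 3 h, at 168% of PBS, and the lowest at 6 h, at 71.7%. Of the lagging-strand genes, the ligase gene Lig1 stood at 104% and 71.0% of PBS and the flap nuclease gene Fen1 at 88.7% and 105%.

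Among genes for chromatin behind the fork, Uhrf1 was the lowest. UHRF1 brings the maintenance DNA methyltransferase to new DNA. It was at 59.6, 57.9, 55.7 and 43.1 FPKM at 3 h and at 66.4, 63.6, 63.8 and 34.2 FPKM at 6 h, under the other columns at both times and at 51.5% of PBS at the later one. The histone chaperone subunit genes Chaf1a and Chaf1b stood at 91.9% and 111% of PBS at 6 h, after 81.0% and 96.0% at 3 h. Slbp, which binds the ends of replication-dependent histone mRNAs, was at 38.8, 39.9, 37.8 and 49.3 FPKM at 3 h and at 38.6, 39.5, 36.1 and 35.3 FPKM at 6 h. The fusion column of Slbp was the highest at 3 h and narrowly the lowest at 6 h.

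Between the fusion columns, 36 of 50 genes, or 72%, were lower at 6 h than at 3 h, beside 51.7% of kept genes. With equal column sums 16 of 50 were, beside 30.4%. Past 2-fold, 5 fell (beside 4.92% of kept genes) and 2 rose (beside 7.27%), and by the 1.5-fold rule 10 were lower (beside 20.2%) and 5 higher (beside 17.8%). Those that fell were Rpa3 (log2 ratio -1.38), Gins2 (-1.24), Tk1 (-1.19), Dut (-1.08) and Rfc2 (-1.02), and those that rose were Orc5 (1.42) and Mcm10 (1.41). With equal column sums none was 2-fold lower, and Orc5, Mcm10, Gins3, Orc4 and Pold3 were higher. The shares of kept genes past 2-fold on that scale were not computed, so these 5 cannot be set against a background. The promoter words were also counted by response, with no test. The E2F word lay in 5 of the 15 genes with a window that were at least 1.5-fold lower at 6 h and in 10 of the other 27, the E-box in 3 of 15 and 5 of 27, the CCAAT box in 9 of 15 and 15 of 27, and the CHR word in 1 of 15 and 5 of 27. Of the 5 genes low by that rule at 3 h, 1 held the E2F word and none the E-box. Gene span was described in the same way. The 4 of those 5 with a locus of their own had a median span of 30.7 kb, from 9.88 kb (Rfc5) to 42.1 kb (Orc2), against 13.5 kb for 23 genes low at neither time. The median was 16.1 kb for 15 genes low at 6 h. The widest span, 327 kb for Pola1, belonged to a gene low at neither time.

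Other replication and dNTP genes from a list of 34, of which 33 are in the table, also stood below PBS at the median. Their median log2 ratio was -0.21 at 3 h and -0.45 at 6 h, or -0.45 and -0.40 with equal column sums. As deposited 5 were lower past 2-fold at 3 h (beside 4.42% of kept genes) and 2 at 6 h (beside 3.34%). None was higher, beside 6.13% and 7.13%. At 3 h the lowest were Dctd (-1.72), which makes dUMP from dCMP, the fork protein gene Wdhd1 (-1.36), the nuclease gene Dna2 (-1.33) and the mitochondrial thymidine kinase gene Tk2 (-1.25). At 6 h they were Chtf18 (-1.28) and Dscc1 (-1.26), parts of an alternative clamp loader. Of 19 G1/S regulators 2 were lower and 1 higher at 3 h, and 4 and 1 at 6 h, beside the same shares of kept genes. Their median log2 ratio was -0.28 at 3 h and -0.33 at 6 h, or -0.54 and -0.27 with equal column sums. The E2F partner gene Tfdp1 (-1.07 and -1.25) and the cyclin D1 gene Ccnd1 (-2.23 and -1.61) were lower at both times, Ccne1 (-2.02) and E2f8 (-1.27) at 6 h, and Cdkn1a, which encodes the inhibitor p21, was higher (2.91 and 2.72). For 25 mitosis genes the median was -0.71 at 3 h and -0.60 at 6 h, or -0.99 and -0.53 with equal column sums. Whether the lists differ was not tested.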

How the data were processed

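The authors deposited 1 table of mean FPKM per group, with 8 columns for 8 groups of 3 replicates, and every column was used. Per the submitters' processing notes, the tools were STAR 2.1.3, Cufflinks 2.2.1, Cuffnorm 2.2.1 and bcl2fastq 2.17.1.14, with the mouse build mm9. For their order, settings, library scaling and strand use, nothing is stated in the sources used here.

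Log2 ratios were taken of FPKM + 1, which understates changes of low genes. Genes averaging 1 FPKM or more were kept, and 2-fold was the rule for a call. With 1 averaged column per group no test over replicates, p-value or error was possible. The 50 genes, the role groups, the other lists and the rules were chosen with earlier results of these data known. Levels in all columns are printed for the genes past 2-fold against PBS and for the highest and lowest mean ratio of each role group. Rpa3, ratios between genes, promoter words and spans were chosen after values were seen. Locus starts in the table count from 0 and are printed counting from 1: of 17045 genes compared, 6930 spans equalled RefSeq on that reading and 440 on the other. The table gives 9 of the 50 a locus shared with another gene: Mcm7, Orc3, Orc4, Orc5, Gins2, Pold2, Rfc4, Lig1 and Tk1. Alternatives were the pseudocount, no filter, 1.5-fold, quantile normalisation, median centring, other references and, added after values were seen, columns scaled to equal sums. Computations used Python 3.11.15, pandas 2.3.3 and numpy 2.4.6.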

Additional observations from a re-analysis of the deposited data

Results flagged for a closer look

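For 4 genes the fusion column lay outside the other 3 columns in opposite directions at the 2 times, with log2 ratios over PBS at least 1.5-fold apart. The difference of these ratios, 6 h minus 3 h, was 1.37 for Mcm10 and 0.70 for Pold3, which were below the other columns at 3 h and above them at 6 h. It was -1.20 for Rpa3 and -1.001 for Dut, which were above at 3 h and below at 6 h. The differences were not tested, since each value is 1 averaged column. The share of kept genes meeting the same rule was not computed. With equal column sums Dut lay below the other columns at both times (log2 ratios over PBS of -0.12 and -0.77), while Mcm10, Pold3 and Rpa3 kept their positions. For Pold3 the position above the others at 6 h was narrow, with 9.90 FPKM against 9.86 FPKM in PBS.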

How the results depend on the processing

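No paired analysis was possible because the columns are group averages that carry no replicate number, and leaving out single replicates was not run for the same reason. Of 138 recomputed comparison results, 119 stayed within 1.5 times the count or within the spread of the 50 genes between Omomyc and FPP-1746, and no median turned its direction. Some of the 119 could not move. All 50 genes passed the minimum, so dropping the filter changed nothing, and a call rule cannot change a median. Counts of 0 for the parts alone had no gene near the rule. The 119 are thus no measure of how firm the fusion results are. The 1.5-fold rule gave more genes, as built: 5 lower and 2 higher at 3 h and 18 lower at 6 h against PBS, 7 against FPP-1746 and 7 against Omomyc at 3 h, 19 and 18 at 6 h, and 15 between the fusion columns. With a pseudocount of 5, 1 gene was lower against PBS at 3 h, and 0 were against FPP-1746 or Omomyc. With a pseudocount of 0.1, 2 were past 2-fold against Omomyc at 3 h. Under quantile normalisation the median at 3 h was -0.31, and the cause was not tested. With columns scaled to equal sums, also added after seeing the data, the median of all kept genes at 3 h moved to -0.25 and that of the 50 to -0.52, and 4 genes were lower at 3 h against PBS, 4 past 2-fold against FPP-1746 and 3 against Omomyc. Between the fusion columns the 7 genes past 2-fold, 5 of them lower, became 5, all higher, with no share of kept genes computed on that scale. Without the 9 genes of shared locus, an alternative added after seeing the data, 1 gene was lower at 3 h and 3 at 6 h. Single calls were lost for Mcm10 at 3 h with a pseudocount of 5 and for Prim1 at 6 h under 5 settings. Calls were gained at 6 h for Orc3 with a pseudocount of 0.1 (-1.04) and under quantile normalisation (-1.07), and there for Rfc5 (-1.01).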
